A study of Mus musculus with 2 samples.

Results

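The 41 genes described here lie at the distal end of mouse chromosome 3, from Ppa2 to Lrrc40, and were followed in Terc-/- mouse embryonic stem cells (mESCs) before and after telomere maintenance by alternative lengthening of telomeres (ALT). They were chosen from a list of genes in the last 25 Mb of the chromosome that drew attention because PD800 cells held more transcripts of this end than PD100 cells. The ratios between the libraries are therefore a description and carry no test. The 41 members are part of 38458 gene columns. Of these members, 40 start within the last 25 Mb before base 159938664, the last annotated base of chromosome 3 in GRCm38. Ppa2 starts 1.63 Mb ahead of that window, whereas Manba is the first member inside it. Each member had at least 1 unique molecular identifier (UMI, a tag that marks 1 captured transcript) in each library.

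Both libraries came from DKO741, a Terc knock-out line made by targeting both Terc alleles of the E14 line, and 1 library was made per time point by inDrops, a droplet method that reads transcripts from their 3′ end. The labels place the harvest of PD100 cells at passage 100, when telomeres left from the parental line still allowed growth, and that of PD800 cells, which are ALT survivors, at passage 800, whereas the sample titles give these numbers as population doubling levels. Both carried the same deletion, were grown feeder-free and descend from 1 line, so no telomerase-positive control and no replicate error were at hand. Library and time point cannot be told apart. Every interval below is a 95% interval, and none covers differences between libraries or cultures. Intervals of levels and ratios cover counting error only. Those of medians reflect the spread over genes, and those of cell shares and of variances over means the sampling of cells. The filter of at least 1000 UMIs and at most 20% mitochondrial UMIs left 814 PD100 cells with 1826233 UMIs and 900 PD800 cells with 2580963 UMIs. Medians were 2151 and 2701.5 UMIs per cell, and 8 barcodes occurred among the cells of both libraries. Terc had 0 UMIs in either library, which is no check of the deletion, because no telomerase-positive library shows that it could be detected. All 12 stem cell markers were detected in both, at summed levels of 12218 and 12660 CPM (UMIs scaled to the same total in each library). Fibroblast markers, a sign of feeder cells, summed to 13.1 and 12.4 CPM. The 9 markers of extraembryonic endoderm summed to 424 CPM in PD100 and 20.5 CPM in PD800, with Gata6 and Srgn at 0 UMIs in the latter. Mitochondrial UMIs took a median of 1.23% of a PD100 cell and 4.42% of a PD800 cell. The part of these shifts in the results below was not tested, except where a value without endoderm-marker cells is given.

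Mouse chromosomes carry their centromere next to one telomere, and the distal end is the one far from it. Genes of such an end are neighbours by position and not by function. They sit on the same chromosome end, and a telomere that shortens exposes that end. Close neighbours can share replication timing and chromatin, which need not hold over a stretch of this length. The members encode proteins as different as the histone variant H2A.Z, enzymes of fatty acid and cysteine metabolism, splicing factors and a G protein subunit. DNA copy number was not measured in these libraries. From whole-genome sequencing, the paper reports copy-number changes at long-arm chromosome ends of PD800 cells compared with PD100. Its text does not say whether this end was among them, and any part of copy number in the ratios was not tested.

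Promoters are shown for 4 members because they carry the contrast described below. Gng5 had the highest ratio of PD800 over PD100, Zranb2 was the last member with a raised ratio before the chromosome end, and Srsf11 and Lrrc40 had ratios below the median gene and start 23 bases apart on opposite strands. Each sequence runs from 250 bases before to 50 bases after a RefSeq start in GRCm38.p6, and capitals mark the GC box, GGGCGG, on either strand.
Gng5, chr3:146499586-146499885, plus strand: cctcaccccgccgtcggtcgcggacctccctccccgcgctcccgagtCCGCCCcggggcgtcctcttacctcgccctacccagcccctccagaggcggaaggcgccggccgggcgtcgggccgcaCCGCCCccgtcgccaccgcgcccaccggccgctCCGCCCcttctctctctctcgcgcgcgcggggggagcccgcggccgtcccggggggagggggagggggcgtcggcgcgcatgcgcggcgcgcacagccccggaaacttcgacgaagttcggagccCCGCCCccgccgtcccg
Zranb2, chr3:157533915-157534214, plus strand: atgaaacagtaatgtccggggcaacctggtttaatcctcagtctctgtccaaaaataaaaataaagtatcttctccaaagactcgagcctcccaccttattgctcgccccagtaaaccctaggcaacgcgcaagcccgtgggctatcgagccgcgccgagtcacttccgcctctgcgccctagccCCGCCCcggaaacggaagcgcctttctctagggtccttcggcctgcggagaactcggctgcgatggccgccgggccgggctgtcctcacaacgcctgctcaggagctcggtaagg
Srsf11, chr3:158036557-158036856, minus strand: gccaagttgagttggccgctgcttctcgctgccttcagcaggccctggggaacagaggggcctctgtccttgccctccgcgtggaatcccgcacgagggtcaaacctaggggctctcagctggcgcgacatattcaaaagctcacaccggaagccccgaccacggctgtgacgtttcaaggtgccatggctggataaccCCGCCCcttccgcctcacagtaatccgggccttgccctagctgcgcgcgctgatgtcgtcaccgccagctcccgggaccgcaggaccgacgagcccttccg
Lrrc40, chr3:158036432-158036731, plus strand: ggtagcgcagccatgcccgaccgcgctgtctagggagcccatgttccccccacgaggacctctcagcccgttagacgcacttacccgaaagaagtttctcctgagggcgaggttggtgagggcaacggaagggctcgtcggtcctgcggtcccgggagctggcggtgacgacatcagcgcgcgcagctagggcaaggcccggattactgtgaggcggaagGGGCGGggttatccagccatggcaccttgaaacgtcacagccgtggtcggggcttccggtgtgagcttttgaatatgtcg
The GC box, a binding sequence of Sp family factors, occurred 4 times in the window of Gng5, 3 of them before its start, and 1 time in each of the other windows. The windows of Srsf11 and Lrrc40 share 175 bases, and the GC box in them is the same one read from both strands. The RefSeq table held a promoter for 31 members. Of these, 23 (74.2%) had a GC box, against 35.7% of all 32851 promoters of the same length, and their median GC content was 64.7% against 52.7%. The 32851 promoters were not limited to genes detected here, and no share over tested genes was computed. The excess is therefore not read as a trait of this end. A CCAAT box, CCAAT, was found in 9 of 31 (29.0%, against 37.4% of all), a TATA box, TATAAA, in 3 (9.68%, against 13.6%) and an E-box, CACGTG, in 2 (6.45%, against 7.15%). The RefSeq start used lay 187161 bases from the GENCODE start of Bmpr1b, 2060 from that of Ddit4l and 1458 from that of Bcl10. For Ctbs the distance was 672 bases. Bmpr1b and Ddit4l are among the members with a TATA box, and Bmpr1b, Bcl10 and Ctbs among those with a CCAAT box. Ddit4l, Bcl10 and Ctbs are also counted among those with a GC box. The 21 tested members with a GC box had a median relative log2 ratio of 0.95, and the 6 without one had 1.20. Relative ratios are defined below, and a match describes these letters and says nothing about binding.

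Levels of the members were compared between PD800 and PD100 to see how the expression of the chromosome end differed once ALT had been established, and whether it did so evenly from cell to cell. Summed over the 41 members, the level was 5013 CPM in PD100 and 7593 CPM in PD800, which was 1.51-fold higher (1.48 to 1.55). H2afz alone gave 49.8% of the members' UMIs in PD100 and 43.7% in PD800. Without it the remaining 40 members summed to 2517 and 4271 CPM, 1.70-fold higher in PD800 (1.64 to 1.76). Genes whose UMIs in PD100 and PD800 added up to 50 or more are called tested genes, 6984 in all, and their median log2 ratio of CPM was -0.34. Ratios relative to this median are called relative ratios from here on. A relative log2 ratio of 1 means a PD800 over PD100 ratio 2-fold that of the median gene. A member is called raised where the counting interval of its relative ratio lies above 0 and lowered where it lies below. Of the members, 34 were tested and 7 were not.

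The tested members had a median relative log2 ratio of 0.96 (0.68 to 1.28), and all 41 members had a median of 0.84. The relative ratio was at least 2-fold higher in 16 of the 34, where 13.9% of all tested genes were, and at least 2-fold lower in 4, where 7.79% were. The counting interval lay above the median of all genes for 27 members, against 30.0% of all tested genes, and below it for 4, against 26.5%. Because this ratio chose the members, nothing is read from these shares. Metap1, Odf2l and Ankrd13c were the 3 tested members whose interval included the median. The minimum of 50 UMIs was just met by Odf2l with 53 UMIs and just missed by Pdlim5 with 49 and Nfkb1 with 48.

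**Figure D1:**
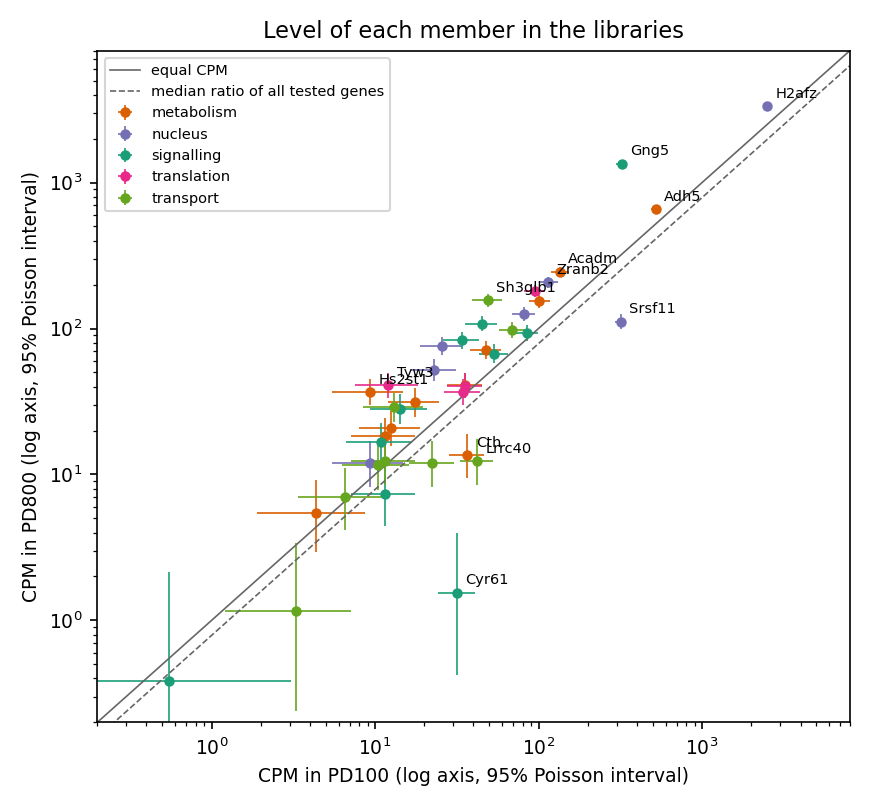
Level of each of the 41 members in PD800 (y axis, CPM) against PD100 (x axis, CPM), both on log axes, with 95% Poisson intervals as bars and colours for roles. H2afz held the most UMIs, at 2496 and 3322 CPM, Gng5 lies farthest above the line of equal CPM, and 8 members lie below it, Srsf11, Cth, Lrrc40 and Cyr61 among them.

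The relative ratios were not the same along the end. Members were divided into stretches after the values had been seen. The last cut lies between Zranb2 and Cth, which start 360 kb apart. It was placed where the ratios change sign and not at a wide gap. From Ppa2 to Rap1gds1 (12 members, 9 tested), the median relative log2 ratio was 0.69 (0.47 to 1.07), and the summed level was 1.31-fold higher in PD800. From Bmpr1b to Prkacb (16 members, 13 tested), it was 1.53 (0.92 to 2.02), and the summed level was 734 CPM in PD100 and 2179 CPM in PD800, 2.97-fold higher (2.80 to 3.15). From Usp33 to Zranb2 (9 members, 8 tested), it was 1.19 (0.55 to 2.11), with a sum 1.71-fold higher. The intervals of these 3 medians overlap one another. From Ppa2 to Rap1gds1, H2afz gave 4559 of 6169 UMIs in PD100 and 8573 of 11460 in PD800. From Bmpr1b to Prkacb, Gng5 gave 589 of 1340 and 3474 of 5625. The sums of these stretches thus rest largely on a single gene each. The 4 members nearest to the end, Cth, Ankrd13c, Srsf11 and Lrrc40, went the other way. Their sum was 419 CPM in PD100 and 150 CPM in PD800, a ratio of 0.357 (0.315 to 0.404), and each of the 4 had a relative log2 ratio below 0.

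**Figure D2:**
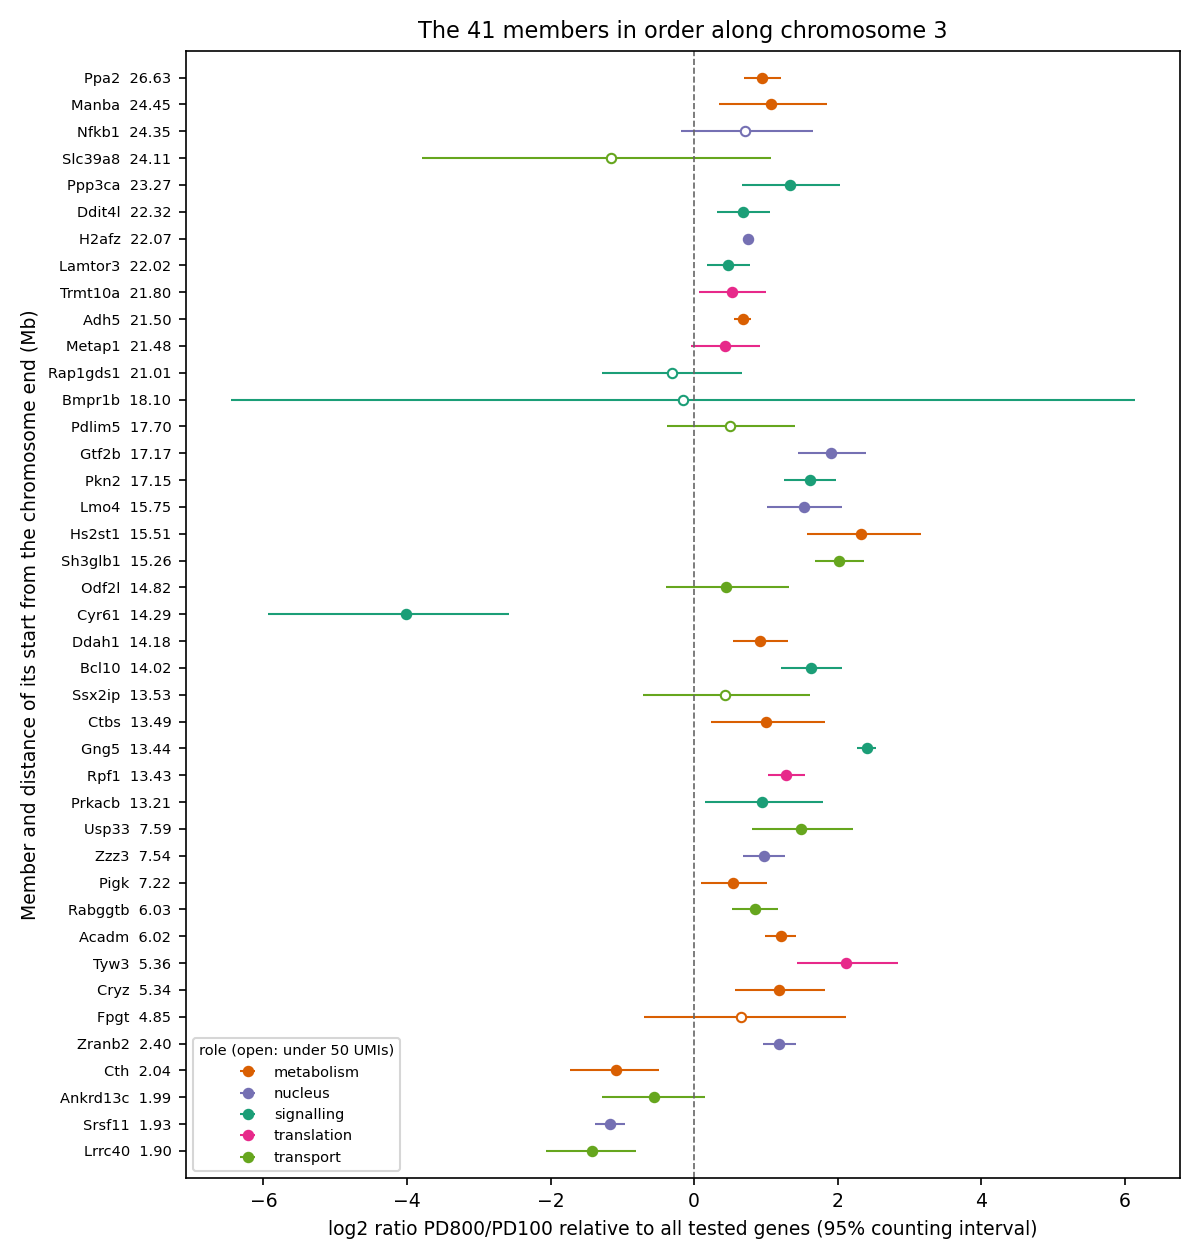
Relative log2 ratio (x axis, PD800 over PD100 minus the median of all tested genes) of the 41 members in order along the chromosome (y axis, with the distance of each start from the chromosome end in Mb), with 95% counting intervals. Filled points are tested members and open points the 7 members under 50 UMIs. Points lie right of 0 from Ppa2 down to Zranb2 with few exceptions, Cyr61 at -4.02 being the farthest, and the 4 lowest rows lie left of 0.

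Near the end, the ratios of the members changed sign between Zranb2 and Cth. The nearest tested gene before Zranb2, Gm37324, is no member and had a relative log2 ratio of -0.62 (-1.31 to 0.04). Zranb2, a splicing factor that starts 2.40 Mb from the end, had 210 UMIs in PD100 and 534 in PD800. Its level went from 115 CPM (100 to 132) to 207 CPM (190 to 225), a relative log2 ratio of 1.19 (0.96 to 1.43). It was found in 8.48% of PD100 and 16.4% of PD800 cells thinned to 1000 UMIs each, so that cells of both libraries are compared at 1 depth. Cth starts 360 kb farther on, and the 3 gene columns between them held 9 UMIs in all.

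Cth encodes cystathionine gamma-lyase, which makes cysteine from cystathionine. It had 67 UMIs in PD100 and 35 in PD800, and its level went from 36.7 CPM (28.4 to 46.6) to 13.6 CPM (9.45 to 18.9). The relative log2 ratio was -1.09 (-1.73 to -0.48), and the share of thinned cells with a UMI was 3.32% against 0.889%. Srsf11, an SR-type splicing factor, held the most UMIs of the 4. It went from 580 to 288 UMIs, from 318 CPM (292 to 345) to 112 CPM (99.1 to 125), with a relative log2 ratio of -1.17 (-1.38 to -0.96). Cells with a Srsf11 UMI made up 20.9% of thinned PD100 cells (18.1 to 23.8) and 9.22% of thinned PD800 cells (7.41 to 11.3). The splicing factors Zranb2 and Srsf11, near neighbours on the chromosome, thus had ratios of opposite sign.

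Lrrc40, a leucine-rich repeat protein, had the lowest relative ratio of the 4. Its UMIs went from 77 to 32 and its level from 42.2 CPM (33.3 to 52.7) to 12.4 CPM (8.48 to 17.5), a relative log2 ratio of -1.42 (-2.07 to -0.81). It was seen in 2.83% and 0.889% of thinned cells. Ankrd13c, an ankyrin repeat protein of the endoplasmic reticulum, had 41 and 31 UMIs and a relative log2 ratio of -0.56 (-1.28 to 0.15). Its interval includes 0, so that a difference from the median gene was not detectable at this depth. The 4 genes span 174 kb. Lrrc40 ends 1.87 Mb before the last annotated base, and the 12 gene columns beyond it held 30 UMIs in PD100 and 26 in PD800, too few to describe the chromosome tip.

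**Figure D3:**
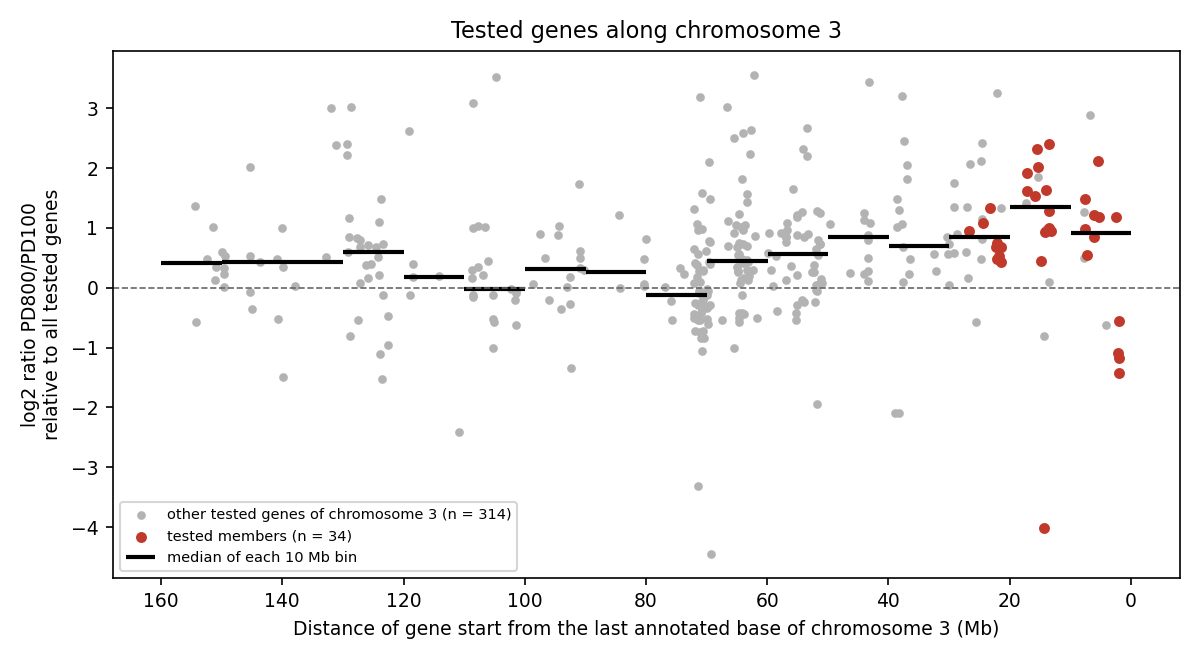
Relative log2 ratio (y axis) of tested genes of chromosome 3 against the distance of their start from the chromosome end (x axis, Mb, end at the right). Red points are the 34 tested members, grey points the other 314 tested genes, and black bars the median of each 10 Mb bin, which reaches 1.35 in the bin second from the end. The red points at the far right below 0 are the 4 members nearest to the end.

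Members that serve signalling had the highest summed ratio of the 5 roles. Their level was 608 CPM in PD100 and 1752 CPM in PD800, 2.88-fold higher (2.70 to 3.08), and Gng5 gave most of these UMIs. Without Gng5 the other signalling members summed to 286 and 406 CPM, 1.42-fold higher (1.28 to 1.58), which was below the 1.70-fold of the translation members and the 1.49-fold of the transport members, with intervals that overlap. The rank thus rests on Gng5. Of 10 such members 8 were tested, and 7 had an interval above the median of all genes. Gng5 encodes a gamma subunit of heterotrimeric G proteins. It went from 589 UMIs in PD100 to 3474 in PD800, from 323 CPM (297 to 350) to 1346 CPM (1302 to 1392). The relative log2 ratio of 2.40 (2.28 to 2.53) was the highest of the members. Gng5 was found in 25.4% of thinned PD100 cells (22.5 to 28.6) and 69.7% of thinned PD800 cells (66.5 to 72.7), and without thinning in 44.5% and 89.7%. The annotation lists 1 processed copy under its name, Gng5-ps, which has no column of its own, so that reads of the copy cannot be told apart.

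Cyr61, a secreted matricellular protein, was the only tested member between Ppa2 and Zranb2 below the median. It had 58 UMIs in PD100 and 4 in PD800, or 31.8 CPM (24.1 to 41.1) against 1.55 CPM (0.422 to 3.97). The relative log2 ratio was -4.02 (-5.94 to -2.58). It occurred in 2.70% of thinned PD100 cells and in 0 of 900 thinned PD800 cells, where the exact binomial interval reaches up to 0.409%. Without thinning the shares of cells with a UMI were 4.79% and 0.333%. Leaving out the cells with at least 3 UMIs of endoderm markers, 41 in PD100 and 1 in PD800, left 32 and 4 UMIs and a relative log2 ratio of -3.25 (-5.21 to -1.76). Cyr61 is thus lower in PD800 with or without those cells.

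The 4 kinases, phosphatases and adaptors that were tested among the signalling members were raised. Pkn2, a serine/threonine protein kinase, went from 82 to 279 UMIs with a relative log2 ratio of 1.61 (1.25 to 1.98). Bcl10, an adaptor of NF-kappaB signalling, went from 62 to 214 with 1.63 (1.22 to 2.06), and Ppp3ca, the catalytic subunit of calcineurin, from 26 to 73 with 1.33 (0.67 to 2.04). Prkacb, a catalytic subunit of protein kinase A, went from 20 to 43 with 0.95 (0.15 to 1.79). The 2 members that act on mTOR signalling were raised by less. Ddit4l, an inhibitor of the pathway, had 97 and 174 UMIs and 0.69 (0.32 to 1.06), and Lamtor3, a Ragulator subunit, had 155 and 240 UMIs and 0.47 (0.18 to 0.77). Rap1gds1, an exchange factor for small GTPases, had 21 and 19 UMIs, and the BMP receptor Bmpr1b had 1 in each library.

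Members that act in the nucleus were dominated by H2afz, which encodes the histone variant H2A.Z. It had 4559 UMIs in PD100 and 8573 in PD800, from 2496 CPM (2424 to 2570) to 3322 CPM (3252 to 3393), and a relative log2 ratio of 0.75 (0.70 to 0.81). Cells with an H2afz UMI made up 86.0% of thinned PD100 cells and 93.7% of thinned PD800 cells. Of 7 nuclear members 6 were tested, and 5 had an interval above the median, Srsf11 being the exception. Gtf2b, the general transcription factor TFIIB, had the highest ratio among them. It went from 47 to 197 UMIs, 25.7 to 76.3 CPM, with a relative log2 ratio of 1.91 (1.44 to 2.40). Lmo4, a LIM-only cofactor, went from 42 to 135 UMIs with 1.53 (1.02 to 2.06). Zzz3, a subunit of the ATAC histone acetyltransferase complex, went from 148 to 324 UMIs, 81.0 to 126 CPM, with 0.97 (0.69 to 1.26), and was found in 6.51% and 11.2% of thinned cells. Nfkb1, which encodes a subunit of NF-kappaB, had 17 and 31 UMIs and was not tested.

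Of 11 metabolic members 10 were tested, and 9 had an interval above the median, with Cth below it. Acadm, the medium-chain acyl-CoA dehydrogenase of fatty acid oxidation, went from 246 to 634 UMIs. Its level was 135 CPM (118 to 153) in PD100 and 246 CPM (227 to 266) in PD800, a relative log2 ratio of 1.21 (0.99 to 1.43), and its share of thinned cells 11.7% and 20.9%. Hs2st1, which sulfates heparan sulfate, had the second highest ratio of all members. It went from 17 UMIs to 95, from 9.31 CPM (5.42 to 14.9) to 36.8 CPM (29.8 to 45.0), with a relative log2 ratio of 2.33 (1.57 to 3.16), and from 1.11% to 3.67% of thinned cells. Adh5, the glutathione-dependent formaldehyde dehydrogenase, had a lower ratio. It went from 952 to 1696 UMIs, 521 CPM (489 to 555) to 657 CPM (626 to 689), with 0.68 (0.56 to 0.79), and from 32.4% to 44.3% of thinned cells.

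Ppa2, the mitochondrial pyrophosphatase at the proximal border, went from 185 to 397 UMIs, 101 CPM (87.2 to 117) to 154 CPM (139 to 170), with a relative log2 ratio of 0.94 (0.69 to 1.20). It was found in 8.35% and 12.0% of thinned cells. The lysosomal enzymes Manba and Ctbs had relative log2 ratios of 1.07 (0.35 to 1.85) and 1.01 (0.23 to 1.82), at 23 and 54 UMIs for Manba and 21 and 47 for Ctbs. Cryz, a quinone oxidoreductase, had 32 and 81 UMIs and 1.18 (0.58 to 1.82). Ddah1, which breaks down dimethylarginine, had 87 and 184 UMIs and 0.92 (0.55 to 1.31). Pigk, the catalytic subunit of the GPI transamidase, had 65 and 106 UMIs and 0.55 (0.09 to 1.02). Fpgt, of fucose metabolism, had 8 and 14 UMIs and was not tested. No metabolic member had fewer UMIs in PD800 than in PD100 apart from Cth.

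The 4 members of translation and RNA modification were tested, and 3 had an interval above the median. Tyw3, an enzyme of wybutosine synthesis in tRNA, went from 22 UMIs to 106, from 12.0 CPM (7.55 to 18.2) to 41.1 CPM (33.6 to 49.7). The relative log2 ratio was 2.11 (1.44 to 2.85), and its share of thinned cells 0.737% and 3.11%. Rpf1, a factor of ribosome assembly, went from 173 to 469 UMIs, 94.7 CPM (81.1 to 110) to 182 CPM (166 to 199), with 1.28 (1.03 to 1.54) and 8.23% and 15.6% of thinned cells. Trmt10a, a tRNA methyltransferase, had 65 and 105 UMIs and 0.53 (0.07 to 1.00). The methionine aminopeptidase gene Metap1 had 63 and 95 UMIs and 0.44 (-0.04 to 0.92).

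Transport, scaffold and protein turnover members numbered 9, of which 6 were tested and 3 had an interval above the median. Sh3glb1, which encodes the membrane-bending protein endophilin B1, went from 89 to 403 UMIs, 48.7 CPM (39.1 to 60.0) to 156 CPM (141 to 172). Its relative log2 ratio was 2.02 (1.69 to 2.37), and it was found in 4.91% and 13.0% of thinned cells. Usp33, a deubiquitinase, had 24 and 75 UMIs and 1.49 (0.81 to 2.21). Rabggtb, a subunit of Rab geranylgeranyl transferase, had 126 and 252 UMIs and 0.84 (0.53 to 1.16). Odf2l, a centriolar protein, had 21 and 32 UMIs and 0.45 (-0.39 to 1.32). Pdlim5, Ssx2ip and Slc39a8 were not tested, with 19 and 30, 12 and 18, and 6 and 3 UMIs. Slc39a8, a zinc and manganese transporter, and Rap1gds1 were the 2 untested members with fewer UMIs in the larger PD800 library, and the 7 untested members summed to 46.0 and 44.9 CPM.

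Genes that start close together on opposite strands did not always share a ratio. Srsf11 and Lrrc40, 23 bases apart, were both lowered, with relative log2 ratios of -1.17 and -1.42. Hs2st1 and the selenoprotein gene Sep15, which is no member, start 123 bases apart and were both raised, at 2.33 and 1.85. Tyw3 and Cryz start 393 bases apart within 394 bases of overlap and had 2.11 and 1.18, with intervals that overlap. Gng5 and Spata1 start 54 bases apart, and there the pair differed. Gng5 was at 2.40, whereas Spata1, with 59 and 70 UMIs, was at 0.09 (-0.43 to 0.61). Spata1 overlaps Ctbs by 8654 bases on the opposite strand, and the use of strand in counting is not given in the sources used here. By strand, the 21 tested members on the plus strand had a median of 0.94 and the 13 on the minus strand 1.21.

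The other 17 tested genes of the last 25 Mb are no members, and 15 of them were above the median of all genes. The end was chosen for its raised transcripts, so nothing is read from this count. Dnajb14, a co-chaperone gene, went from 2104 to 22383 UMIs with a relative log2 ratio of 3.25 (3.19 to 3.32), the highest in the window. Its transcripts carry a short interspersed repeat on the sense strand, found from sequences shared by raised transcripts of several chromosomes. The 449 tested genes with this repeat had a median relative log2 ratio of 1.55, against -0.04 for the 6535 without it. Ube2d3, which also carries it, had 2.42 (2.34 to 2.51). Adh5 was the only member that carries it. Without the repeat-carrying genes the last 25 Mb kept a median of 0.99, and the 14 non-members without it had 1.07. St6galnac3 (8 to 66 UMIs, 2.89) and Bdh2 (14 to 68 UMIs, 2.12) were the highest of these. Cenpe, the kinetochore motor, was at 0.49 (0.15 to 0.82). Znhit6, which starts between Odf2l and Cyr61, went from 126 to 80 UMIs, with -0.81 (-1.24 to -0.40), so that Cyr61 was not the only lowered gene inside the raised part. Gm37324 had 47 and 34 UMIs and -0.62 (-1.31 to 0.04).

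Raised ratios were not confined to the last 25 Mb. The 50 tested genes of this window had a median relative log2 ratio of 0.99 (0.69 to 1.28) and the 42 of the preceding 25 Mb had 0.82 (0.56 to 1.06), a difference of 0.17 that is smaller than the width of either interval. In bins of 10 Mb the median was above 0 in 7 of the 8 bins before 80 Mb as well, reaching 0.60 (0.07 to 0.82) from 30 to 40 Mb, the exception being -0.02 from 50 to 60 Mb. It was -0.12 (-0.34 to 0.17) from 80 to 90 Mb and above 0 in each of the 7 bins beyond. It reached 1.35 (0.92 to 1.85) from 140 to 150 Mb, and was 0.91 (-0.62 to 1.26) in the final bin, which holds the 4 members nearest to the end. Whole chromosome 3 had a median of 0.48, the highest of the 20 nuclear chromosomes with a value. For the last 25 Mb, chromosome 3 also ranked first. This end was chosen because its transcripts were raised in PD800, so nothing is read from its rank. Chromosome 12 followed with 0.78 (0.53 to 0.95) and chromosome 6 with 0.75 (0.59 to 1.04), and both intervals overlap that of chromosome 3. Chromosome 11 stood at 0.01 (-0.08 to 0.18) for a window of this length, and chromosome 19 was lowest with -0.41 (-0.57 to -0.20).

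**Figure D4:**
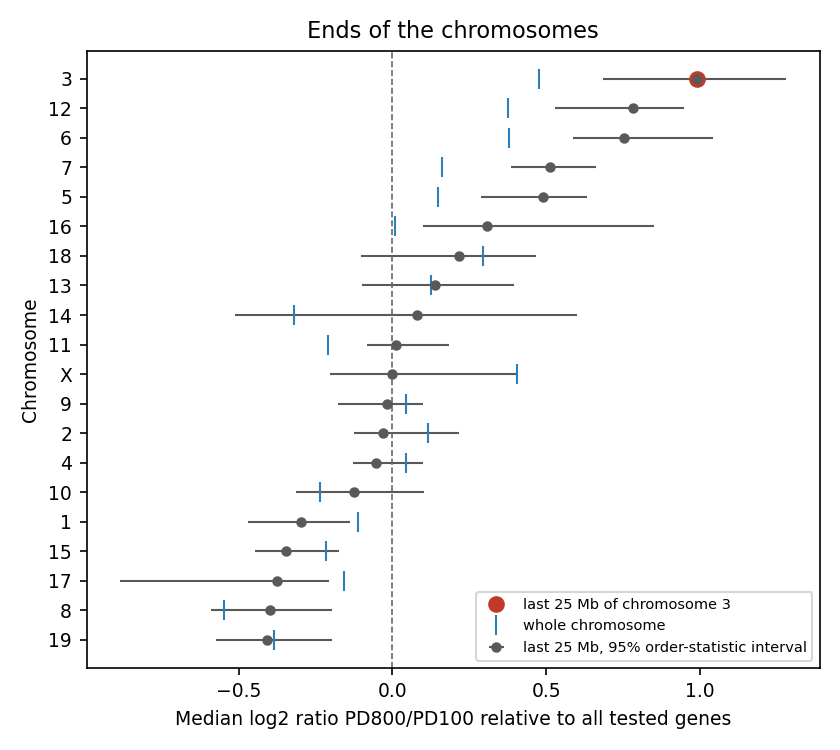
Median relative log2 ratio (x axis) of tested genes in the last 25 Mb of each chromosome (y axis) as points with 95% order-statistic intervals, and of the whole chromosome as blue ticks. Chromosome 3 (red), the end chosen for its raised transcripts, lies farthest right at 0.99, and its interval overlaps those of chromosomes 12 and 6.

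The higher level of the members in PD800 was seen across its cells. Thinned to 1000 UMIs, PD100 cells held 4.90 member UMIs on average (0 to 16, median 5) and PD800 cells 7.56 (1 to 19, median 7). The variance over the mean, which is 1 for a Poisson spread, was 1.39 (1.27 to 1.54) for PD100 cells and 1.33 (1.22 to 1.46) for PD800 cells, with overlapping intervals. Leaving out H2afz gave 1.32 and 1.21. For the 36 members left without H2afz and the 4 nearest to the end, PD100 cells held 2.03 UMIs and PD800 cells 4.11. Of PD800 cells, 2.78% had none of these UMIs, where a Poisson spread of that mean gives 1.64%, and of PD100 cells 17.4%, where it gives 13.1%. Both shares were somewhat above the Poisson value.

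The 4 members nearest to the end were found in fewer cells of PD800. At least 1 of their UMIs was found in 27.4% of thinned PD100 cells (24.4 to 30.6) and in 12.0% of thinned PD800 cells (9.95 to 14.3), against 32.3% and 12.7% from a Poisson spread. Without thinning the shares were 47.9% and 28.1%. Their mean was 0.391 UMIs per thinned cell in PD100 and 0.136 in PD800, and their variance over the mean was 1.44 (1.31 to 1.59) and 1.11 (1.02 to 1.22). Taken singly, 6 members reached an average of 0.1 UMI in thinned cells of PD100 and of PD800, and their median Fano factor (variance over mean of 1 gene) was 1.42 in PD100 and 1.25 in PD800. The share of thinned cells with a UMI was higher in PD800 for 32 of the 41 members and for 29 of the 34 tested ones, where 38.2% of all tested genes had a higher share. It was lower for 8 members and equal for 1, Bmpr1b, at 0. At equal depth this share follows the ratio for which this end was chosen, so nothing is read from these counts.

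**Figure D5:**
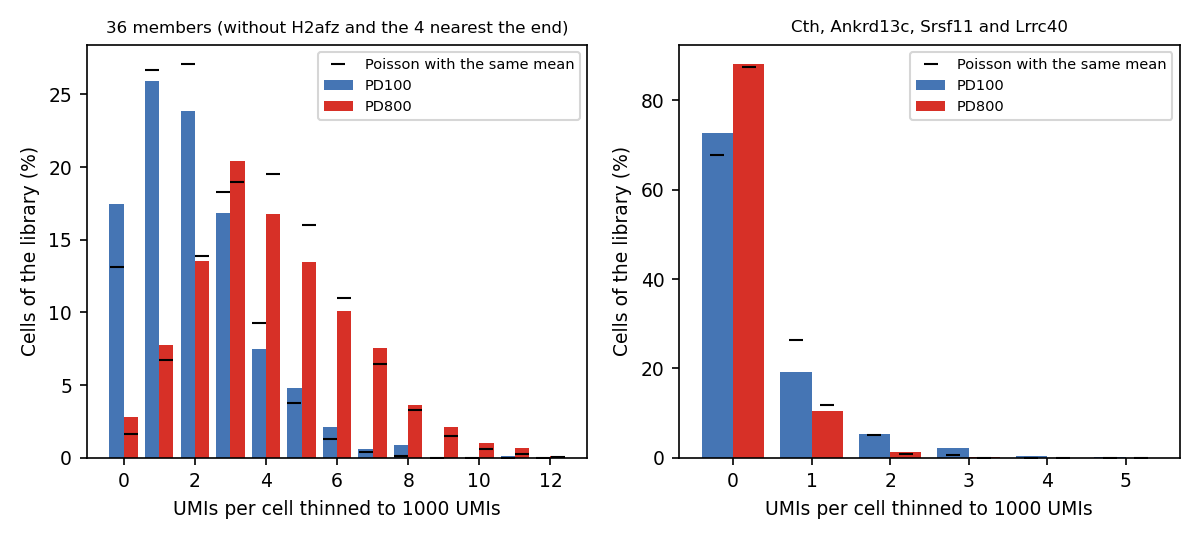
Share of cells (y axis, % of the library) by number of member UMIs per cell thinned to 1000 UMIs (x axis), for 36 members without H2afz and the 4 nearest to the end (left) and for those 4 (right). Bars are PD100 (blue) and PD800 (red), and black marks give a Poisson spread with the mean of each library. The red bars are shifted to the right in the left panel as a whole, and 88.0% of PD800 cells hold none of the 4 genes in the right panel, against 72.6% of PD100 cells.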

How the data were processed

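The deposited tables are raw UMI counts of genes in cell barcodes. The authors ran the inDrops pipeline against a transcriptome of GRCm38/mm10. The annotation release is not given in the sources used here. The members and the lists were chosen with earlier results of these data known. Cells with at least 1000 UMIs and at most 20% mitochondrial UMIs were kept and summed per library. With 1 library per group no test was made. Intervals were exact Poisson for CPM, exact conditional (Clopper-Pearson) for ratios and exact binomial for shares, while medians received order-statistic and variances over means chi-square intervals, all at 95%. Those for CPM and ratios cover counting error only. Intervals of medians reflect the spread over genes and treat neighbouring genes as independent. Those of shares and of variances over means reflect the sampling of cells. None covers differences between libraries. By rule, members with at least 400 UMIs and the 4 highest and 4 lowest ratios were given in full, with the 4 highest and 4 lowest non-members of the window and Dnajb14. Positions came from GENCODE M21 (GRCm38), for 6933 of 6984 tested genes. The repeat was found from 20-mers shared by transcripts of Dnajb14, Unc13d, Gm37750 and 2310058D17Rik, chosen because they were known to be raised. Doublets were called with Scrublet in Scanpy 1.11.5 at an expected rate of 5%, 14 in PD100 and 8 in PD800, and kept. Thinning drew 1000 UMIs per cell without replacement. Alternatives covered cell filters, doublets, endoderm-marker cells, scaling, the UMI minimum, repeat genes, windows and thinning. Scripts ran in Python with NumPy, SciPy and pandas, and steps were tested on simulated data.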

Additional observations from a re-analysis of the deposited data

Results flagged for a closer look

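Barcodes that the filter had left out, 477 in PD100 and 766 in PD800, held 246800 and 458381 UMIs and enter no comparison above. Their summed member level was 4660 CPM (4394 to 4937) in PD100 and 7939 CPM (7683 to 8201) in PD800, 1.70-fold higher (1.59 to 1.82). The 36 members other than H2afz and the 4 nearest to the end were 2.13-fold higher there (1.93 to 2.36). Cth, Ankrd13c, Srsf11 and Lrrc40 together had 78 and 47 UMIs in them, a CPM ratio of 0.324 (0.221 to 0.472). Both directions seen in the cells were also present in these barcodes, which come from the same libraries and are no replicate. Groups of 1 library allowed neither a search for samples far from the others nor a comparison of effects between groups.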

How the results depend on the processing

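No paired analysis was possible because each time point has 1 library. The summed member level stayed higher in PD800 under each alternative, at 1.92-fold with median-of-ratios scaling, 1.57-fold without mitochondrial genes in the scaling, 1.70-fold without H2afz and 1.70-fold in the barcodes left out by the filter, the last 2 chosen after seeing the data. With a minimum of 200 UMIs, 8 members were at least 2-fold higher and 16 had an interval above the median, since fewer members were tested. The difference between the last 25 Mb and the preceding 25 Mb turned to -0.44 with windows of 10 Mb and was 0.64 with windows of 50 Mb, so that it depends on the window. The variance over the mean rose to 1.68 in PD100 and 1.65 in PD800 when thinned to 2000 UMIs and to 3.52 and 6.35 without thinning, was 1.55 in PD100 without endoderm-marker cells, and 1.21 in PD800 without H2afz. The difference in median Fano factor, -0.17 over 6 members, became 0.036 without thinning, where 15 members entered, -0.087 with another random seed and -0.048 without doublets, so that its size is not settled here. The summed level of the signalling members was 1.42-fold higher without Gng5, chosen after seeing the data. The median relative ratio of the members ranged from 0.90 to 1.20 over 14 alternatives and the last 25 Mb from 0.82 to 1.07 over 13. Leaving out the barcodes found in both libraries, also chosen after seeing the data, gave 0.97 and 1.51-fold. Cth, Ankrd13c, Srsf11 and Lrrc40 had a summed relative log2 ratio between -1.20 and -1.14 over 7 alternatives on cells and scaling. Each of the 15 members given in full kept the sign of its log2 ratio in the same 7. Depth limits the 7 members under 50 UMIs and the genes beyond Lrrc40.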
